A study of Rattus norvegicus with 19 samples.

Results

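Interleukins, the TNF superfamily and their receptors were followed in rat hearts through a model of heart failure with preserved ejection fraction (HFpEF) and its treatment with empagliflozin (EMPA), pirfenidone (PFD) or both. The genes were taken by name: every symbol in the count files that begins with Il and a digit, Tnf itself, and every symbol that begins with Tnfsf or Tnfrsf. This gave 101 members among 17455 gene symbols.

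The study asked how the transcriptome of the heart changes with the disease and with the drugs, alone and combined. RNA was sequenced from 19 hearts, 1 library per heart, in 7 groups. The labels call the tissue heart, and the paper states that left ventricles were used. The authors left out 1 EMPA and 1 PFD sample because their files were corrupted, so these groups hold 2 libraries each and the other 5 groups hold 3.

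All animals were Sprague-Dawley rats, given in the labels as Wildtype and Male, and were 24 weeks old when the study began. To induce disease, rats drank water with 0.5 g/L of L-NAME, which blocks nitric oxide synthesis, and ate a diet with 60% of its kcal from lard. The group HFpEF was sampled at week 5 of this regimen. The group untreated had been made ill in the same way, then received the vehicle PBS alone and was sampled at week 9. The protocol gives this regimen for 5 weeks, while the discussion of the paper counts the induction as 9 weeks long, so the sources differ on whether L-NAME and the lard diet went on after week 5. EMPA rats received 0.35 g/kg of empagliflozin a day for 4 weeks, PFD rats 0.3 g/kg of pirfenidone a day for 4 weeks, and EMPA + PFD rats both. The drugs were given by mouth after the first 5 weeks, empagliflozin by gavage in PBS, and these rats were sampled at week 9. The groups control 5w and control 9w had no L-NAME and, as the paper describes it, normal chow. Total counts ran from 7430539 in EMPA replicate 1 to 13017754 in control 5w replicate 2.

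Several libraries did not match their labels or stood apart from their group. Every heart is labelled male, and the paper too gives the sequenced hearts as male, while the study used both sexes. Against this, the Y-linked gene Eif2s3y had 0 counts in 7 libraries: HFpEF replicates 1 and 3, all of the untreated group and both PFD libraries. The other 12 libraries had 613 to 1321 counts of it. RT1-CE16, a gene of the highly variable rat major histocompatibility complex, had at most 3 counts in control 5w, HFpEF and EMPA, and 308 to 922 counts in the other 4 groups. The groups compared below therefore often differ in one or both of these genes, and such differences between animals cannot be told apart from the disease, the week or the drug. Only PFD vs untreated and EMPA + PFD vs control 9w matched on both.

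Markers of cell types also showed libraries apart from the rest. The ventricular cardiomyocyte list was present with all 10 of its genes, led by Myh6, as the tissue label would have it. Summed markers of atrial cardiomyocytes were 103, 14940 and 534 CPM (counts relative to library size, scaled by edgeR's TMM factors) in the untreated libraries and 5254, 256 and 23410 CPM in the control 9w libraries, so untreated replicate 2 and control 9w replicate 3 were far above the others of their groups. Summed fibroblast markers were 5229, 47030 and 38230 CPM in control 5w. Replicates 2 and 3 were the highest of all 19 libraries, followed by HFpEF replicate 1 at 18880 CPM. Control 5w replicate 1 was close to the control 9w hearts, at 4998, 3617 and 5220 CPM. Over all tested genes, the log CPM correlation of control 5w replicates 2 and 3 was 0.9939. With replicate 1 these libraries had correlations of 0.9466 and 0.9557. HFpEF replicate 1 had the highest macrophage sum of all 19 libraries, 3611 CPM, and the lowest ventricular cardiomyocyte sum, 16850 CPM.

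Interleukins and the TNF superfamily are secreted or membrane-bound signals with which immune cells, endothelium, fibroblasts and muscle address each other. Most interleukins act through receptor complexes that pair a ligand-specific chain with a shared one, such as gp130, the common gamma chain or the IL-1 receptor accessory protein, and pass the signal to JAK and STAT proteins or to NF-kB. In the heart both families are known for recruiting leukocytes after injury, for driving or restraining fibrosis, and for direct effects on cardiomyocyte survival, while soluble receptors, decoys and receptor antagonists limit them.

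Counts were tested with edgeR's quasi-likelihood F test in a single model of all 19 libraries, and p-values were adjusted by Benjamini-Hochberg over the 12388 genes that passed the filter on low counts. A gene counts as called when its adjusted p is under 0.05 and its log2 fold change is at least 1 in size. Of the 101 members, 65 passed the filter and 36 did not. Fold changes are on the log2 scale with their SE, and levels of a gene are compared between libraries only, since gene lengths were not at hand. In bulk tissue, fewer cells of a type and less RNA per cell cannot be told apart.

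Of the ligands best known as inflammatory cytokines, Il6 and Tnf were close to or below detection, while Il1b had 12 to 139 counts per library. Il6 had 0 to 6 counts per library, with 6, 1 and 3 counts in HFpEF and 0, 2 and 2 in control 5w. Tnf had 0 to 5 counts, and Il10, which restrains macrophages, had 0 to 10. At these depths 3 counts correspond to 0.215 to 0.400 CPM, so differences in Il6, Tnf and Il10 were not detectable. Il1f10, Il3, Il36g and Tnfsf11, the ligand called RANKL, had 0 counts in all libraries.

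Including those 4, there were 21 members with at most 3 counts in every library. Among these were the T cell cytokines Il4, Il5, Il9, Il17a, Il17f and Il22, the IL-17 family ligand Il25, the receptor chains Il5ra and Il20ra, and the TNF members Tnfsf4 and Tnfrsf13b. The remaining 15 untested members reached between 4 and 17 counts in their highest library. Il12b, the p40 subunit of IL-12 and IL-23, was the highest of them: it had 0, 17 and 11 counts in control 5w, 11, 0 and 5 in HFpEF, 2, 1 and 0 in EMPA + PFD and 0 in every library of the other 4 groups. Counts were thus seen in some week 5 hearts and hardly at week 9, without a test.

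Receptors and a smaller number of ligands carried most of the counts. The summed level of the 101 members was 1404, 1751 and 1727 CPM in control 5w, 2637, 2113 and 2153 in HFpEF, 2026, 1908 and 2140 in control 9w and 1779, 2194 and 1768 in untreated hearts. It was 1887 and 1862 CPM with EMPA, 1706 and 1646 with PFD and 1622, 1495 and 1603 with EMPA + PFD. The HFpEF hearts were all above the control 5w hearts, and the EMPA + PFD hearts were all below the control 9w, untreated, EMPA and PFD hearts. Il6st, which encodes gp130, the shared receptor chain of the IL-6 family, made a large part of this sum, with 2721 to 10656 counts per library.

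**Figure D1:**
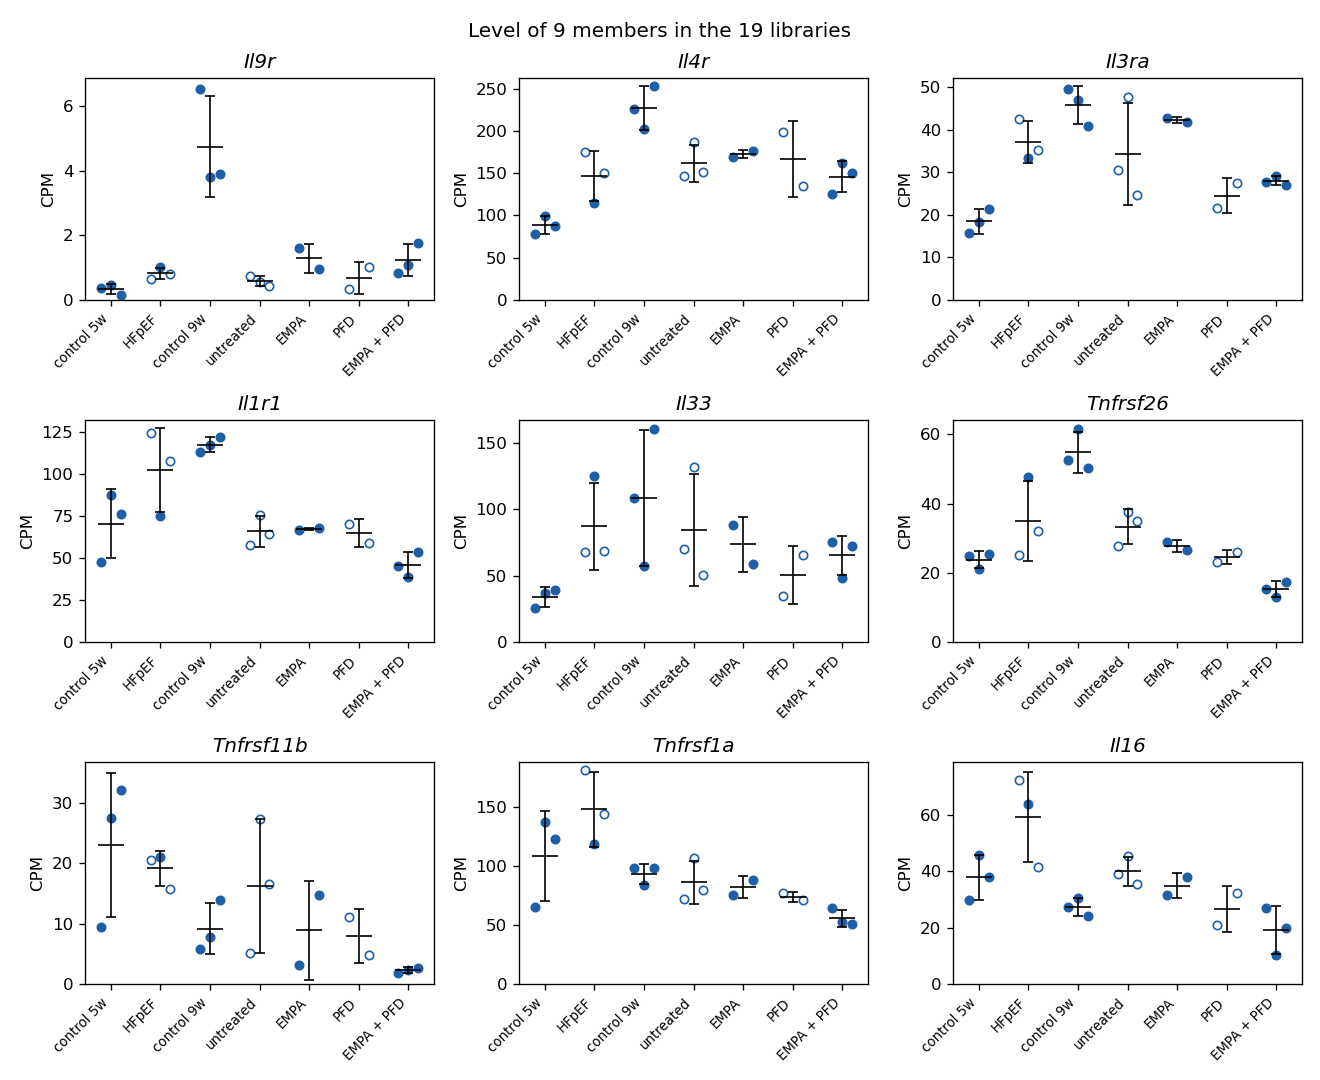
Level of 9 members in CPM (y axis) in each of the 19 libraries by group (x axis), with open points for the 7 libraries that have 0 counts of Eif2s3y, a wide bar at the group mean and whiskers of 1 SD. Il9r is high in the 3 control 9w libraries alone, and Tnfrsf26 is lowest in the 3 EMPA + PFD libraries.

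In HFpEF hearts at week 5, 8 members rose against control 5w and none fell. Over all tested genes 4.28% rose and 4.41% fell. The risers were the ligands Il33, Il24, Il7 and Tnfsf13b and the receptor chains Il12rb1, Il20rb, Il2ra and Il3ra, with fold changes from 1.00 to 2.86 on the log2 scale. The median log2 fold change of the 65 tested members was 0.56, against 0.02 over all tested genes.

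Among the ligands, Tnfsf13b, the B cell survival factor BAFF, stood at 1.04, 1.24 and 0.796 CPM in control 5w and 12.5, 1.38 and 6.97 CPM in HFpEF. HFpEF replicates 1 and 3 were far above every control, and replicate 2 was just above the highest of them (log2 fold change 2.75 ± 0.60, SE, adjusted p = 0.00817). Il33, an alarmin released by damaged stromal cells that binds the receptor Il1rl1, stood at 25.2, 37.3 and 39.1 CPM in control 5w and 67.5, 125 and 68.9 CPM in HFpEF. All HFpEF hearts were above all controls (log2 fold change 1.36 ± 0.42, SE, adjusted p = 0.0337), but the call was lost without control 5w replicate 1, 2 or 3 or HFpEF replicate 2, with adjusted p = 0.110, 0.0656, 0.0640 and 0.133.

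Il24, a cytokine of the IL-10 family, had 5, 2 and 1 counts in control 5w and 11, 10 and 17 counts in HFpEF. The groups did not overlap in CPM (log2 fold change 2.18 ± 0.61, SE, adjusted p = 0.0235), and the call was lost without control 5w replicate 2 or 3 or HFpEF replicate 3, with adjusted p = 0.0769, 0.0866 and 0.0714. Il7, which keeps lymphocytes alive, had 2, 1 and 2 counts in control 5w and 26, 2 and 13 in HFpEF, a ratio of summed CPM of 8.21 with a 95% counting interval of 3.25 to 26.6. The groups overlapped, because HFpEF replicate 2 was as low as the controls (log2 fold change 2.86 ± 0.72, SE, adjusted p = 0.0151; without control 5w replicate 2, adjusted p = 0.0527). Such intervals cover counting error only.

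Among the receptors, Il12rb1, the chain shared by the receptors of IL-12 and IL-23, stood at 0.283, 0.621 and 0.557 CPM in control 5w and 4.23, 1.93 and 3.21 CPM in HFpEF. Every HFpEF heart was above every control (log2 fold change 2.64 ± 0.61, SE, adjusted p = 0.0106). Il3ra, the ligand-binding chain of the IL-3 receptor, was 15.7, 18.3 and 21.5 CPM in control 5w and 42.6, 33.4 and 35.3 CPM in HFpEF, again with no overlap (log2 fold change 1.00 ± 0.20, SE, adjusted p = 0.00528). Its fold change sat at the threshold and was 0.91 without control 5w replicate 1, 0.99 without control 5w replicate 2, 0.89 without HFpEF replicate 1 and 0.9998 without EMPA replicate 1 or 2, and it was not called with DESeq2's size factors.

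Il2ra, the chain that gives the IL-2 receptor its high affinity, was 0.942, 1.16 and 0.637 CPM in control 5w and 2.08, 2.29 and 3.66 CPM in HFpEF. The HFpEF hearts were all higher (log2 fold change 1.53 ± 0.43, SE, adjusted p = 0.0230), and the call was lost without control 5w replicate 1 or 3 or HFpEF replicate 3, with adjusted p = 0.0575, 0.0834 and 0.0765. Il20rb, a chain of the receptors of IL-19, IL-20 and IL-24, was 1.13, 2.10 and 2.31 CPM in control 5w and 8.32, 2.48 and 5.80 CPM in HFpEF, with HFpEF replicate 2 close to the controls (log2 fold change 1.58 ± 0.51, SE, adjusted p = 0.0424). Its adjusted p passed 0.05 without any of 11 libraries, which were control 5w replicates 1, 2 and 3, HFpEF replicates 1 and 3, control 9w replicates 1 and 2 and all EMPA and PFD libraries, and reached 0.161 without HFpEF replicate 1.

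Several well-known members were not called at week 5, by adjusted p or by fold change, and are given as values. Il1rl1, the IL-33 receptor ST2, was 1.79, 2.95 and 2.87 CPM in control 5w and 10.9, 1.10 and 4.91 CPM in HFpEF (log2 fold change 1.16 ± 0.59, SE, adjusted p = 0.175). Il6r, the IL-6 receptor, was 24.9, 41.9 and 39.1 CPM and 115, 29.5 and 69.7 CPM (log2 fold change 1.02 ± 0.39, SE, adjusted p = 0.0745). In both genes HFpEF replicates 1 and 3 were above all controls, while replicate 2, the HFpEF heart with Eif2s3y counts, lay within or below them. Il6st was 435, 436 and 457 CPM in control 5w and 765, 541 and 590.4 CPM in HFpEF, all HFpEF hearts being higher (log2 fold change 0.51 ± 0.17, SE, adjusted p = 0.0405).

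Of the other genes of these pathways, 8 of 24 tested NF-kB and STAT3 targets rose and none fell. Nfkbia, the inhibitor that NF-kB induces against itself, was 90.3, 84.6 and 91.8 CPM in control 5w and 393, 359 and 506 CPM in HFpEF, all HFpEF hearts being far higher (log2 fold change 2.24, adjusted p = 0.000202). Cebpd, a transcription factor downstream of STAT3, was 19.8, 30.0 and 27.5 CPM and 139.5, 54.9 and 122 CPM (log2 fold change 2.03, adjusted p = 0.00140). Among 38 signaling genes, Irak2 and Stat4 rose and Fadd fell. Faslg, a TNF superfamily ligand with another symbol, rose by 2.71 on the log2 scale (adjusted p = 0.00814) and was the 1 called among 8 tested genes of that kind.

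Markers of T lymphocytes moved in the same comparison: 6 of 12 rose, and none was at 0 in all libraries. The summed level of the list was 76.8, 130.3 and 114 CPM in control 5w and 244, 97.5 and 169.8 CPM in HFpEF. This sum was led by Cd4, which overlapped, with 576, 1236 and 1024 counts in control 5w and 1963, 385 and 973 in HFpEF. Cd8a had 44, 63 and 55 counts in control 5w and 284, 128 and 184 in HFpEF, without overlap. Endothelial markers rose in 4 of 10 genes and NK cell markers in 2 of 6, and none of 13 macrophage markers passed the test. Ventricular cardiomyocyte markers fell in 2 of 10 genes, and their sums were 100000, 49270 and 54190 CPM in control 5w and 16850, 27820 and 45740 CPM in HFpEF, lower in each HFpEF heart. The part of these cell types in the members' levels was not tested. The count of 8 members was 4 without control 5w replicate 3 and 5 without control 5w replicate 2. With only these 2 groups in the model it was 2, and the calls of Il20rb, Il24, Il2ra, Il33 and Tnfsf13b were lost. Without HFpEF replicates 1 and 3 together, the libraries with 0 counts of Eif2s3y, those of Il12rb1, Il20rb, Il24, Il2ra, Il3ra and Tnfsf13b were lost. Il7 did not pass the filter on low counts in either case. A term for Eif2s3y, estimated within HFpEF as the only group with both kinds of library, ended the calls of Il12rb1, Il20rb, Il24, Il2ra, Il3ra, Il7 and Tnfsf13b, while Il33 was among the 6 members called with it.

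Between the controls themselves, week 9 differed from week 5 in 16 members, 14 higher and 2 lower at week 9. Over all tested genes 7.46% were called higher and 7.21% lower. In the common gamma chain family 5 of 11 tested genes rose, the receptor chains Il2ra, Il2rb, Il4r and Il9r and the ligand Il15, and Il33, Il1a and several TNF receptors were among the other members that rose. The members' median was 0.13 on the log2 scale and that of all tested genes −0.04.

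Il9r, the receptor for the mast cell and T cell cytokine IL-9, was 0.377, 0.466 and 0.159 CPM in control 5w and 6.54, 3.81 and 3.89 CPM in control 9w. The control 9w hearts were several times above all control 5w hearts (log2 fold change 3.78 ± 0.48, SE, adjusted p = 0.000178). Il4r, the shared receptor chain of IL-4 and IL-13, was 78.0, 99.5 and 88.0 CPM in control 5w and 226, 202 and 253 CPM in control 9w, with a wide gap between the groups (log2 fold change 1.36 ± 0.18, SE, adjusted p = 0.000214). Il2rb, the beta chain used by IL-2 and IL-15, was 20.4, 9.93 and 13.0 CPM and 56.9, 53.4 and 50.5 CPM, again without overlap (log2 fold change 1.90 ± 0.42, SE, adjusted p = 0.00392).

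Il3ra was 49.6, 47.1 and 40.9 CPM in control 9w, above all control 5w hearts (log2 fold change 1.31 ± 0.20, SE, adjusted p = 0.000473). Tnfrsf26, a TNF receptor of rodents, was 24.9, 21.0 and 25.6 CPM in control 5w and 52.7, 61.6 and 50.2 CPM in control 9w (log2 fold change 1.20 ± 0.20, SE, adjusted p = 0.000667). The control 9w hearts were clearly above the control 5w hearts for this receptor, with no overlap. Il33 was 108, 57.4 and 160.5 CPM in control 9w, uneven but above the control 5w hearts in each (log2 fold change 1.68 ± 0.42, SE, adjusted p = 0.00762). Il27ra, a chain of the IL-27 receptor that was picked out after its values were seen, was 2.45, 2.10 and 2.63 CPM in control 5w and 5.19, 4.43 and 7.78 CPM in control 9w (log2 fold change 1.28 ± 0.27, SE, adjusted p = 0.00319). The calls of these 4 genes and of Il9r, Il4r and Il2rb held with each library left out in turn, and those of the other 9 members did not.

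Among the less steady calls between the controls, Il15, which sustains natural killer and memory T cells, rose by 1.08 (SE 0.27, adjusted p = 0.00714) and by 0.96 without control 9w replicate 2. Il2ra rose by 1.55 (SE 0.43, adjusted p = 0.0134, and 0.0585 without control 5w replicate 3). Il1a, an alarmin of the IL-1 family, had 2, 0 and 10 counts in control 5w and 150, 1 and 331 in control 9w, so the groups overlapped and control 9w replicates 1 and 3 made the difference (log2 fold change 5.61 ± 1.65, SE, adjusted p = 0.0175; 0.0661 without control 5w replicate 2 and 0.0552 without control 9w replicate 3). Summed atrial markers, led by Nppa, were 3331, 6168 and 4698 CPM in control 5w and 5254, 256 and 23410 CPM in control 9w, where the same 2 hearts were above the third, and 2 of 7 rose. Elsewhere, untreated replicate 2 had 29 counts of Il1a and an atrial sum of 14940 CPM, and EMPA replicate 2 had 0 counts and 5232 CPM. With EMPA + PFD, Il1a had 46, 72 and 31 counts and the atrial sums were 130, 416 and 194 CPM. The part of atrial cells in the levels of Il1a was not tested.

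Tnfrsf18 (GITR), a costimulatory receptor of regulatory T cells, rose by 1.53 (adjusted p = 0.0315) and was not called without control 5w replicate 1, 2 or 3 or control 9w replicate 1 or 3, where adjusted p reached 0.101. Il22ra2, a soluble decoy that binds IL-22, overlapped between the groups (log2 fold change 1.46 ± 0.53, SE, adjusted p = 0.0450). Its call held only without HFpEF replicate 1 or 2, control 9w replicate 3, untreated replicate 2 or EMPA + PFD replicate 2, and adjusted p was 0.245 without control 9w replicate 2. Tnfrsf25, a death domain receptor of T cells, rose by 1.02 (adjusted p = 0.0404), which was lost without any of 10 libraries: all control 5w, control 9w replicates 1 and 2, all EMPA and PFD libraries and EMPA + PFD replicate 2 (up to 0.213).

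The members that fell were Il17rd, a receptor-like inhibitor of growth factor signaling, and Tnfrsf9, the costimulatory receptor 4-1BB. Il17rd was 1.13, 3.57 and 3.82 CPM in control 5w and 1.01, 0.984 and 0.997 CPM in control 9w, with every week 9 heart lower (log2 fold change −1.50 ± 0.50, SE, adjusted p = 0.0322; lost without control 5w replicate 2 or 3 or any control 9w library, up to 0.116). Tnfrsf9 was 1.51, 0.854 and 0.796 CPM and 0.451, 0.123 and 0.299 CPM (log2 fold change −1.78 ± 0.53, SE, adjusted p = 0.0180; 0.0602 without control 5w replicate 1 and 0.0801 without control 9w replicate 2). In this comparison 8 of 10 endothelial markers rose, from 2027, 1637 and 1874 to 4498, 4781 and 3871 CPM summed with Vwf the most abundant, while 8 of 10 fibroblast and 9 of 13 macrophage markers fell. Fibroblast sums were 5229, 47030 and 38230 CPM in control 5w and 4998, 3617 and 5220 CPM in control 9w, control 5w replicate 1 being close to control 9w. NK cell markers rose in 2 of 6 tested genes, with sums of 17.7, 10.6 and 13.7 CPM in control 5w and 52.6, 42.4 and 41.7 CPM in control 9w, led by Klrd1, without overlap. Their part was not tested, RT1-CE16 differs between these controls, and the count of 16 was 10 without control 5w replicate 2, control 5w replicate 3 or control 9w replicate 2.

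At week 9 the disease comparison, untreated against control 9w, held 2 called members, both lower in untreated hearts, and none higher. The shares over all tested genes were 0.573% lower and 0.339% higher. The members' median was 0.01 on the log2 scale, the same as that of all tested genes, and the sign of both turned with DESeq2's size factors.

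Il9r was 0.739, 0.568 and 0.421 CPM in untreated hearts, far below the control 9w values given above and near the week 5 groups (log2 fold change −3.02 ± 0.46, SE, adjusted p = 0.00890). The call held with each library left out. Tnfrsf10b, a death receptor for the ligand TRAIL, was 12.6, 15.5 and 15.7 CPM in control 9w and 3.80, 6.82 and 5.16 CPM in untreated hearts, with every untreated heart lower (log2 fold change −1.46 ± 0.34, SE, adjusted p = 0.0434). Without control 5w replicate 2 or 3, HFpEF replicate 3, any control 9w library, untreated replicate 1 or 3, EMPA replicate 1 or 2, or EMPA + PFD replicate 2 it was not called, with adjusted p of 0.0514 to 0.196, which left 1 called member. These groups differ wholly in Eif2s3y, and with a term for it 0 members were called. The term rests on the HFpEF libraries alone, so it cannot separate Eif2s3y from the disease at week 9.

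The week 5 risers were not called at week 9. Il33 was 70.3, 132 and 50.7 CPM in untreated hearts (log2 fold change −0.37 ± 0.41, SE, adjusted p = 0.673), Tnfsf13b was 1.79, 2.44 and 0.843 CPM against 1.58, 0.615 and 0.997 CPM in control 9w (log2 fold change 0.67 ± 0.63, SE, adjusted p = 0.610), and Il12rb1 was 3.90, 2.11 and 0.948 CPM against 1.24, 1.23 and 1.30 CPM (log2 fold change 0.88 ± 0.58, SE, adjusted p = 0.451). Untreated and control 9w hearts overlapped in each of these 3 genes. Of the NF-kB and STAT3 targets, Nfkbia alone was called, and it was lower in untreated hearts (log2 fold change −1.15, adjusted p = 0.0291). Summed T cell markers were 57.6, 42.9 and 51.5 CPM in control 9w and 117, 120.2 and 69.3 CPM in untreated hearts, higher in each, with 1 of 12 genes called. Erythroid sums, led by Hbb, were 1440, 1728 and 1111 CPM against 219.8, 174 and 286 CPM, lower in each untreated heart, with 2 of 3 tested genes called. The part of these cells in the members' levels was not tested.

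Whether the disease effect itself differed between the weeks was tested directly, as the effect at week 9 minus that at week 5. It was lower at week 9 for 8 members and higher for none, where 5.67% of all tested genes were lower and 6.35% higher. The members were the ligands Il15 and Il33 and the receptors Il1r1, Il3ra, Il4r, Il9r, Tnfrsf10b and Tnfrsf26. Their median over the 65 tested was −0.71, against −0.02 over all tested genes. The calls of Il1r1, Il3ra, Il4r and Il9r held with each library left out. Untreated and control 9w hearts differ wholly in Eif2s3y, and a term for it ended the calls of Il15, Il33 and Tnfrsf26, while the other 5 were among the 8 members called with it. Because the term rests on the HFpEF libraries alone, it cannot separate Eif2s3y from the disease at week 9.

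Il1r1, the signaling receptor of IL-1, shows the pattern: it was 47.6, 87.5 and 76 CPM in control 5w and 124, 74.8 and 108 CPM in HFpEF, then 113, 117 and 122 CPM in control 9w and 57.5, 75.5 and 64.1 CPM in untreated hearts. At week 5 the groups overlapped, and at week 9 all untreated hearts were below all controls (difference of the effects −1.37 ± 0.30, adjusted p = 0.00790). For Il4r the HFpEF hearts at 175, 115 and 149.8 CPM were above the control 5w hearts, and the untreated hearts at 146, 187 and 151 CPM were below the control 9w hearts (−1.22 ± 0.25, adjusted p = 0.00638). Il3ra was 30.5, 47.7 and 24.7 CPM in untreated hearts, which overlapped with control 9w (−1.42 ± 0.28, adjusted p = 0.00475).

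The difference was −4.28 ± 0.68, adjusted p = 0.00196 for Il9r. For Tnfrsf26, with 25.1, 47.6 and 32.1 CPM in HFpEF and 27.6, 37.4 and 34.9 CPM in untreated hearts, it was −1.27 ± 0.28, adjusted p = 0.00761, and −0.98 without HFpEF replicate 2. The calls of the others were less steady. Il15 (−1.30 ± 0.37, adjusted p = 0.0254) was lost without HFpEF replicate 2, control 9w replicate 1 or 2, or untreated replicate 1 or 3, with adjusted p up to 0.0727.

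Tnfrsf10b (−1.58 ± 0.48, adjusted p = 0.0311) lost its call without control 5w replicate 1, HFpEF replicate 1, control 9w replicate 2 or 3, or untreated replicate 1 or 3, with adjusted p up to 0.0864. Il33 (−1.73 ± 0.58, adjusted p = 0.0491) kept its call only without HFpEF replicate 1, control 9w replicate 2 or untreated replicate 2. The count of 8 was 5 without untreated replicate 1 or 3. Nfkbia moved with these members: the difference of its effects was −3.39 (adjusted p = 0.000260), and 5 of 24 NF-kB and STAT3 targets, 5 of 10 endothelial, 2 of 6 NK cell and 2 of 3 erythroid markers were lower in the same test. Ventricular cardiomyocyte markers were higher in 2 of 10 genes, and fibroblast markers, with a median difference of 1.02, had no called gene. The part of these cells in the members' levels was not tested.

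**Figure D2:**
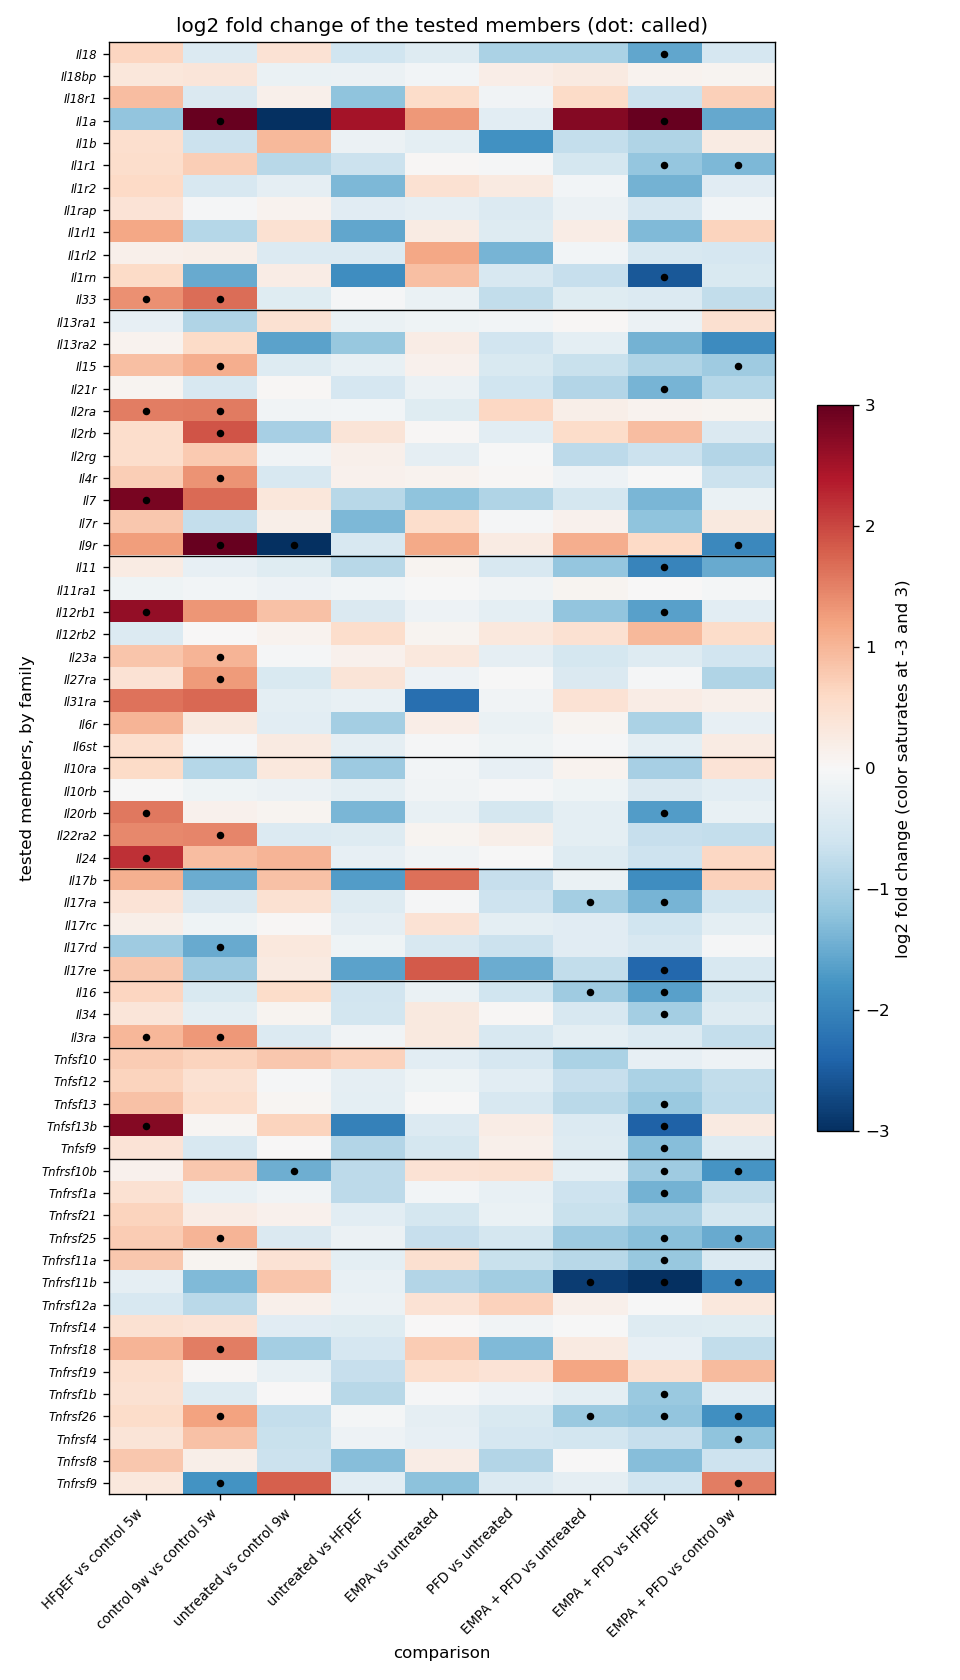
Log2 fold change (color) of the 65 tested members (y axis, grouped by family) in 9 comparisons (x axis), with a dot where the member was called. The 22 dots for EMPA + PFD vs HFpEF and the 16 for control 9w vs control 5w are the most, and there is none for EMPA or PFD alone.

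With either drug alone, no member passed the threshold against untreated hearts at week 9. With EMPA, edgeR called 0 members, as did DESeq2, 2 members had an unadjusted p under 0.05, and 0.0404% of all tested genes were called and 8.63% had such a p. With PFD, edgeR and DESeq2 again called 0 members, 3 had an unadjusted p under 0.05, and the shares of all tested genes were 0.00807% and 5.21%. The medians of the members were −0.03 with EMPA and −0.29 with PFD on the log2 scale, against 0.01 and −0.02 over all tested genes.

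Under EMPA, 2 of the 65 tested members had both libraries below all untreated libraries and 6 had both above, against 11.4% and 12.3% of all tested genes. Under PFD, 19 of the 65 tested members had both libraries below all untreated libraries, against 12.8% of all tested genes, while none had both above, against 11.4%. Il1b, the inflammatory cytokine that the inflammasome releases, had the lowest unadjusted p: it was 3.48, 11.1 and 4.21 CPM in untreated hearts and 1.31 and 2.26 CPM with PFD. Both PFD hearts were below all untreated hearts, of which replicate 2 was by far the highest (log2 fold change −1.81 ± 0.56, SE, unadjusted p = 0.00590, adjusted p = 0.786). With EMPA, Il1b was 7.59 and 2.79 CPM. Il17ra, the receptor chain shared by the IL-17 cytokines, was 44.3, 80.9 and 54.0 CPM untreated and 42.3 and 35.5 CPM with PFD, also without overlap (log2 fold change −0.62 ± 0.28, SE, adjusted p = 0.786). For cell type markers, median log2 fold changes with PFD were −0.59 for T cells, −0.34 for macrophages and −0.43 for fibroblasts. Medians were −1.10 for mast cell, −5.70 for atrial, 0.52 for ventricular cardiomyocyte and 2.05 for erythroid markers. Sums of PFD and untreated hearts overlapped for T cell, macrophage, fibroblast, mast cell and atrial markers. Atrial sums were 103, 14940 and 534 CPM untreated and 3011 and 105 CPM with PFD. Erythroid sums were 219.8, 174 and 286 CPM untreated and 670 and 812 CPM with PFD, without overlap. Ventricular cardiomyocyte sums were 83000, 21740 and 77030 CPM untreated and 83170 and 87750 CPM with PFD, untreated replicate 2 being far the lowest. Their part in the members' levels was not tested.

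With the combination, 4 members were lower than in untreated hearts, Il16, Il17ra, Tnfrsf11b and Tnfrsf26, and none was higher. Over all tested genes 1.48% fell and 2.34% rose. In 20 of the 65 tested members all EMPA + PFD libraries were below all untreated ones and in 3 all were above, against 18.7% of all tested genes in each direction. The members' median was −0.30 on the log2 scale, against −0.03 over all tested genes.

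Il16, a chemoattractant for cells that carry CD4, was 39.1, 45.3 and 35.3 CPM in untreated hearts and 27.1, 10.2 and 19.9 CPM with EMPA + PFD. The groups did not overlap, and EMPA + PFD replicate 2 was the lowest (log2 fold change −1.07 ± 0.30, SE, adjusted p = 0.0348). Tnfrsf26 was 15.4, 13.0 and 17.4 CPM with EMPA + PFD, below every other library of the study, and 27.6, 37.4 and 34.9 CPM untreated (log2 fold change −1.12 ± 0.20, SE, adjusted p = 0.00836). With EMPA alone it was 28.9 and 26.5 CPM and with PFD alone 23 and 25.9 CPM.

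Tnfrsf11b, osteoprotegerin, the soluble decoy for RANKL and TRAIL, was 5.06, 27.3 and 16.5 CPM in untreated hearts and 1.77, 2.27 and 2.72 CPM with the combination. The untreated hearts ranged widely, and the 3 treated hearts were low and close together (log2 fold change −2.85 ± 0.69, SE, adjusted p = 0.0224). Il17ra was 32.9, 28.2 and 27.6 CPM with the combination, below all untreated hearts (log2 fold change −1.02 ± 0.25, SE, adjusted p = 0.0249). With EMPA alone Tnfrsf11b was 3.06 and 14.7 CPM and Il17ra 60.6 and 56.1 CPM. With PFD alone Tnfrsf11b was 11.2 and 4.8 CPM. Il16 was 31.7 and 38.0 CPM with EMPA alone, and 20.8 and 32.3 CPM with PFD alone, where both hearts were below all untreated hearts.

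None of the 4 calls held with every library left out. Without EMPA + PFD replicate 2 the count was 0, with adjusted p of 0.141 for Il16, 0.109 for Il17ra, 0.101 for Tnfrsf11b and 0.0578 for Tnfrsf26. Without untreated replicate 2, untreated replicate 3 or EMPA + PFD replicate 3 it was 1, Tnfrsf26 alone. For Il16 adjusted p was then 0.129, 0.0626 and 0.0915, for Il17ra 0.127, 0.0513 and 0.0839, and for Tnfrsf11b 0.103, 0.0527 and 0.0688. These groups differ wholly in Eif2s3y. A term for it rests on the HFpEF libraries alone, so it cannot separate Eif2s3y from the drugs in this comparison. With the term, the calls of Il16, Il17ra and Tnfrsf11b ended, while Tnfrsf26 was among the 4 members called. Il17ra was also not called by DESeq2 or with DESeq2's size factors in edgeR, where its fold change just missed the threshold. With only the groups compared in the model, no member was called.

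Downstream, 4 of 24 NF-kB and STAT3 targets fell with the combination and none rose. Icam1, an adhesion molecule for leukocytes, was 46.5, 66.6 and 46.5 CPM untreated and 28.0, 16.7 and 19.3 CPM with EMPA + PFD (log2 fold change −1.32, adjusted p = 0.00934). Csf1, the growth factor of macrophages, was 54.5, 82.1 and 62.4 CPM and 35.2, 21.2 and 29.2 CPM (log2 fold change −1.22, adjusted p = 0.00677). The treated hearts were below all untreated hearts in both genes, and the others were Tnfaip2 and Bcl3. No T cell, macrophage or fibroblast marker passed the test here, and the medians of these lists were −1.12, −0.71 and −0.69 on the log2 scale. T cell sums were 117, 120.2 and 69.3 CPM untreated and 71.9, 35.3 and 66.7 CPM with EMPA + PFD, with overlap. Medians were −1.375 for neutrophil, −1.27 for B cell and 0.05 for NK cell markers. Neutrophil sums were 18.8, 26.4 and 24.1 CPM untreated and 4.73, 12.8 and 11.3 CPM with EMPA + PFD, lower in each treated heart. Summed endothelial markers were 3483, 4034 and 3830 CPM untreated and 2506, 2171 and 2166 CPM with EMPA + PFD, lower in each treated heart, with 1 of 10 genes called. Ventricular cardiomyocyte sums were 83000, 21740 and 77030 CPM against 97640, 114500 and 89830 CPM, higher in each treated heart, with 1 of 10 called, and 2 of 7 atrial markers fell. The part of these cells in the members' levels was not tested. Whether the drugs together did more than the sum of their single effects was tested as an interaction, in which edgeR and DESeq2 called 0 members, 2 had an unadjusted p under 0.05, and 0.00807% of all tested genes were called and 9.13% had such a p.

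Against the week 5 disease group, untreated hearts at week 9 had 0 members called by edgeR and 2 by DESeq2, with 15 at an unadjusted p under 0.05. Of all tested genes, edgeR called 0.194%, and 22.7% had an unadjusted p under 0.05. All 15 members with such a p were lower at week 9. Whatever their p, 57 of the 65 tested members had a log2 fold change below 0, against 51.5% of all tested genes. The members' median was −0.33, against −0.01 over all tested genes. Macrophage sums were 3611, 811 and 2119 CPM in HFpEF and 464, 1049 and 552 CPM in untreated hearts and overlapped, with a median log2 fold change of −1.34 and no marker called. The medians were −0.9958 for fibroblast and 0.90 for ventricular cardiomyocyte markers, none of them called, and −3.52 for erythroid markers, of which 3 of 3 tested fell. Their part was not tested. Tnfrsf1a, the main receptor of TNF, was 182, 119 and 144 CPM in HFpEF and 72.1, 107 and 80.1 CPM in untreated hearts, which did not overlap (log2 fold change −0.78 ± 0.23, SE, adjusted p = 0.101). The count became 7 without HFpEF replicate 2 and 2 without untreated replicate 2.

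Hearts given EMPA + PFD differed most from the HFpEF hearts at week 5: 21 members were lower and 1 was higher. Over all tested genes 12% were called lower and 10.7% higher. The lower members spanned IL-1, IL-17 and TNF receptors, the ligands Il11, Il16, Il18, Il34, Tnfsf9, Tnfsf13 and Tnfsf13b, and the antagonist Il1rn. The members' median was −0.90, against −0.09 over all tested genes. This comparison joins 4 more weeks with the drugs, and RT1-CE16 differs between its groups, as does Eif2s3y for HFpEF replicates 1 and 3.

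Among the ligands, Il16 was 72.5, 64 and 41.4 CPM in HFpEF, above all EMPA + PFD hearts (log2 fold change −1.64 ± 0.30, SE, adjusted p = 0.00102). Il18, which the inflammasome activates as it does Il1b, was 17.6, 4.68 and 11.2 CPM in HFpEF and 3.08, 3.94 and 4.39 CPM with the combination (log2 fold change −1.55 ± 0.51, SE, adjusted p = 0.0223). HFpEF replicate 1 was the highest and replicate 2 just above the treated hearts, and adjusted p was 0.123 without HFpEF replicate 1, 0.0705 without EMPA + PFD replicate 1 and 0.0624 without EMPA + PFD replicate 2. Tnfsf13b was 1.42, 1.08 and 1.36 CPM with the combination, where HFpEF replicate 2 overlapped with the treated hearts (log2 fold change −2.43 ± 0.60, SE, adjusted p = 0.00530).

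Il1rn, the natural antagonist of the IL-1 receptor, was 14.6, 2.20 and 6.97 CPM in HFpEF and 0.828, 1.44 and 1.78 CPM with the combination, lower in each treated heart (log2 fold change −2.54 ± 0.60, SE, adjusted p = 0.00405). Il34, a ligand of the macrophage receptor Csf1r, was 22.2, 21.7 and 21.8 CPM and 12.1, 10.2 and 10.1 CPM (log2 fold change −1.02 ± 0.23, SE, adjusted p = 0.00317), and its fold change was −0.97 without EMPA + PFD replicate 2 and −0.96 without EMPA + PFD replicate 3. It was not called by DESeq2 or with DESeq2's size factors in edgeR. The groups did not overlap in Il1rn or Il34. Il11, a profibrotic cytokine that signals through gp130, had 20, 10 and 10 counts in HFpEF and 1, 3 and 3 with the combination, a ratio of 4.19 with a 95% counting interval of 1.86 to 11.1 (log2 fold change −1.99 ± 0.70, SE, adjusted p = 0.0311). It was not called without HFpEF replicate 1 or EMPA + PFD replicate 1, 2 or 3, with adjusted p of 0.0586 to 0.0991.

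The member that was higher was Il1a, with 1, 0 and 4 counts in HFpEF and 46, 72 and 31 with the combination (log2 fold change 5.24 ± 1.83, SE, adjusted p = 0.0298). All treated hearts were above the HFpEF hearts, but the call was lost without HFpEF replicate 1 or 2 or EMPA + PFD replicate 2, with adjusted p = 0.0887, 0.0789 and 0.0737. Il1a had 0, 29 and 0 counts in untreated, 32 and 0 in EMPA and 2 and 11 in PFD hearts. It thus varied widely between hearts of the same group.

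Among the receptors, Tnfrsf1a was 64.1, 52.5 and 50.9 CPM with the combination, well below all HFpEF hearts (log2 fold change −1.41 ± 0.24, SE, adjusted p = 0.000697). Tnfrsf1b, the second TNF receptor, found mostly on immune and endothelial cells, was 59.8, 28.1 and 37.7 CPM in HFpEF and 21.2, 17.1 and 19.5 CPM with the combination (log2 fold change −1.12 ± 0.26, SE, adjusted p = 0.00368), and its fold change was −0.77 without HFpEF replicate 1, the highest. Tnfrsf11b fell the furthest, from 20.6, 21.1 and 15.8 CPM in HFpEF (log2 fold change −3.08 ± 0.69, SE, adjusted p = 0.00306). The groups were separate in all 3 receptors.

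Il17ra was 105, 54.4 and 74.0 CPM in HFpEF (log2 fold change −1.40 ± 0.26, SE, adjusted p = 0.00105), and Il1r1 was 45.2, 38.4 and 53.7 CPM with the combination (log2 fold change −1.16 ± 0.21, SE, adjusted p = 0.00114, and −0.9957 without HFpEF replicate 1). Treated hearts were lower in each. Tnfrsf26 was lower too, with a log2 fold change of −1.19 ± 0.20 (adjusted p = 0.000679) that was −0.90 without HFpEF replicate 2. Il17re, a receptor of IL-17C, was 10.1, 2.48 and 2.77 CPM in HFpEF, with replicate 1 far the highest, and 0.591, 1.44 and 0.940 CPM with the combination (log2 fold change −2.36 ± 0.82, SE, adjusted p = 0.0283), and was not called without HFpEF replicate 1 or any EMPA + PFD library (adjusted p up to 0.187).

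Il12rb1 fell (log2 fold change −1.62, SE 0.58, adjusted p = 0.0336) and lost its call without HFpEF replicate 1 or 3 or EMPA + PFD replicate 1 or 2, with adjusted p up to 0.128. Il20rb fell (log2 fold change −1.67, SE 0.52, adjusted p = 0.0183) with overlapping groups, and lost its call without HFpEF replicate 1 or EMPA + PFD replicate 1 or 2, with adjusted p up to 0.0894. The calls of Il16, Il17ra, Il1rn, Tnfrsf11b, Tnfrsf1a and Tnfsf13b held with each library left out. A term for Eif2s3y, estimated within HFpEF alone, ended 15 of the 22 calls, those of Il17ra, Il1rn and Tnfsf13b among them. Il16, Il34, Tnfrsf11b, Tnfrsf1a, Tnfrsf25, Tnfrsf26 and Tnfsf13 were the 7 of the 22 among the 12 members called with it. The count of 22 was 10 without EMPA + PFD replicate 2 and 14 without HFpEF replicate 1.

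Most called genes of the related pathways were lower too in this comparison. Of 24 NF-kB and STAT3 targets 11 were lower and none higher, and of 7 inflammasome genes 6 were lower, among them Nlrp3, Casp1 and Gsdmd. Pycard, the adaptor of the inflammasome, was 24.6, 16.3 and 19.7 CPM in HFpEF and 8.51, 5.14 and 5.33 CPM with the combination (log2 fold change −1.68, adjusted p = 0.000308). Of 38 signaling genes 2 were higher, the STAT5-induced inhibitors Socs2 and Cish, and 5 lower, and of 8 TNF superfamily genes with other symbols Faslg, Cd40 and Ngfr were lower.

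Markers of several, but not all, kinds of leukocyte fell over the same groups. Macrophage markers were lower in 12 of 13 genes, and their sum was 3611, 811 and 2119 CPM in HFpEF and 343, 375 and 547 CPM with EMPA + PFD, led by Lyz2, with no marker at 0 in all libraries. T cell markers were lower in 10 of 12 genes, with sums of 244, 97.5 and 169.8 CPM against 71.9, 35.3 and 66.7 CPM, led by Cd4. None of 6 NK cell markers was called, and their sums of 26.3, 38.4 and 29.4 CPM against 35, 20.0 and 44.2 CPM overlapped. Fibroblast markers were lower in 7 of 10 genes, B cell markers in 3 of 4, and ventricular cardiomyocyte markers were higher in 7 of 10, with sums of 16850, 27820 and 45740 CPM in HFpEF and 97640, 114500 and 89830 CPM with the combination. Erythroid markers were lower in 2 of 3 tested genes, with sums of 1656, 1313 and 3637 CPM against 137, 454 and 201 CPM and no overlap. The part of these shifts in the members' levels was not tested.

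**Figure D3:**
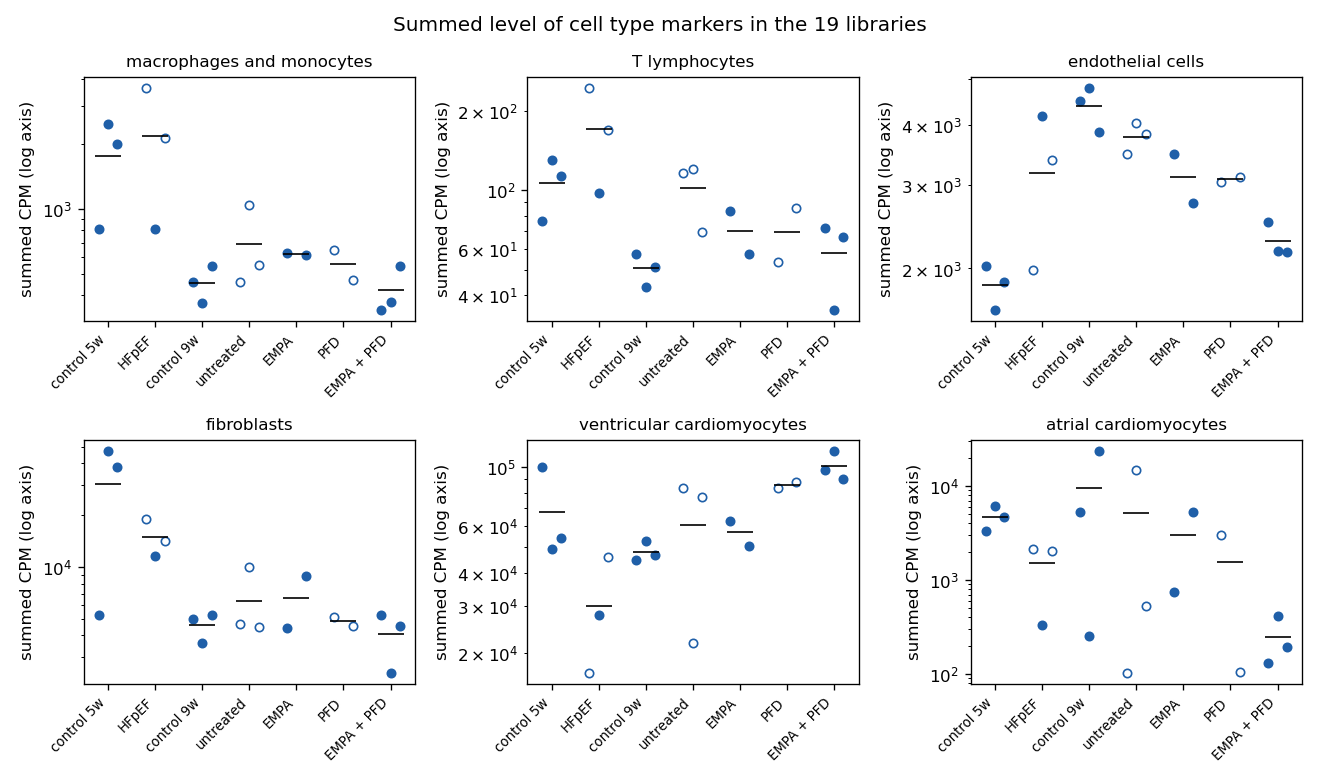
Summed level of 6 marker lists in CPM (y axis, log scale) in each of the 19 libraries by group (x axis), with open points for libraries with 0 counts of Eif2s3y and a bar at the group mean. Macrophage sums lie between 343 and 547 CPM in EMPA + PFD hearts and between 811 and 3611 CPM in HFpEF hearts.

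Against the controls of the same week, 8 members were lower with EMPA + PFD and 1 was higher, where 4.92% of all tested genes were lower and 7.15% higher. The median was −0.40, against −0.08 over all tested genes. Both groups have counts of Eif2s3y and of RT1-CE16.

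Most were receptors. Tnfrsf26 had the smallest p (log2 fold change −1.84 ± 0.20, adjusted p = 0.000276), and Il1r1 was lower as well, at −1.36 ± 0.22 (adjusted p = 0.000867). Il9r was 0.828, 1.08 and 1.78 CPM with the combination, below the control 9w hearts (log2 fold change −1.93 ± 0.43, SE, adjusted p = 0.00447). Tnfrsf10b was 3.19, 3.47 and 6.16 CPM, also below all controls (log2 fold change −1.76 ± 0.35, SE, adjusted p = 0.00248). Tnfrsf25 was 23.7, 35.9 and 15.2 CPM in control 9w and 10.5, 8.37 and 7.21 CPM with the combination (log2 fold change −1.52 ± 0.37, SE, adjusted p = 0.00729). These 5 calls held with each library left out.

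Il15 was 37.7, 41.9 and 28.8 CPM in control 9w and 20.5, 14.3 and 16.9 CPM with the combination, lower in all treated hearts (log2 fold change −1.07 ± 0.27, SE, adjusted p = 0.00836; −0.95 without control 9w replicate 2 and −0.94 without EMPA + PFD replicate 2). Tnfrsf4, the costimulatory receptor OX40, was 3.27, 3.08 and 2.99 CPM and 2.01, 1.08 and 0.940 CPM (log2 fold change −1.21 ± 0.35, SE, adjusted p = 0.0172; adjusted p 0.0761 without EMPA + PFD replicate 2 and 0.0776 without EMPA + PFD replicate 3). Tnfrsf11b was 5.75, 7.75 and 13.9 CPM in control 9w (log2 fold change −2.01 ± 0.69, SE, adjusted p = 0.0358) and lost its call without control 9w replicate 2 or 3 or any EMPA + PFD library, up to adjusted p = 0.126.

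Tnfrsf9 was the higher member, at 1.42, 0.598 and 0.627 CPM with the combination against 0.451, 0.123 and 0.299 CPM in control 9w (log2 fold change 1.54 ± 0.55, SE, adjusted p = 0.0422). It was not called without control 9w replicate 2 or 3, untreated replicate 1, any EMPA or PFD library or EMPA + PFD replicate 1, where adjusted p reached 0.207, nor by DESeq2, with no filter beyond 1 count or without HFpEF replicate 1 and untreated replicate 2 together. Endothelial markers were lower in 5 of 10 genes here, with sums of 4498, 4781 and 3871 CPM in control 9w and 2506, 2171 and 2166 CPM with the combination, atrial markers in 5 of 7 and erythroid markers in 2 of 3. Ventricular cardiomyocyte markers were higher in 3 of 10 genes, with sums of 44650, 52620 and 46500 CPM against 97640, 114500 and 89830 CPM and no overlap. Macrophage and T cell markers had no called gene. The part of these cells in the members' levels was not tested.

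Other members that are often studied in the heart were measured well and were called in none of the comparisons. Il6st stayed between 334.6 and 764.7 CPM in all hearts. Tnfsf12, the ligand TWEAK, was 75.8, 125 and 87.9 CPM in HFpEF and 55.0, 43.0 and 50.7 CPM with the combination, and its receptor Tnfrsf12a, called Fn14, was 45.4, 12.7 and 35.9 CPM and 22.8, 45.9 and 24.6 CPM. The groups were separate for the ligand and overlapped for the receptor, with log2 fold changes of −0.95 ± 0.19 (adjusted p = 0.00158) and −0.02 ± 0.53 (adjusted p = 0.983).

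Il2rg, the common gamma chain, was 98.2, 94.3 and 129 CPM in untreated hearts and 66.8, 58.5 and 61.1 CPM with the combination, where all treated hearts were lower (log2 fold change −0.79 ± 0.25, SE, adjusted p = 0.0512). Il13ra1, a chain of the IL-13 receptor, was 32.0, 42.5 and 43.3 CPM in control 5w and 22.3, 16.6 and 24.2 CPM in control 9w (log2 fold change −0.90 ± 0.20, SE, adjusted p = 0.00439). Il10rb, a chain shared by the receptors of IL-10, IL-22 and other ligands, was among the steadiest, from 33.5 to 55.5 CPM over the 19 hearts. None of these differences passed both the fold threshold and the adjusted p.

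Promoters of members that moved together were read for motifs of the factors that cytokine receptors activate. RefSeq promoters of the GRCr8 assembly, 250 bases before to 50 after the start of the gene, matched 77 of the 101 members. The NF-kB motif, of 10 letters, was in 11 of these 77 (14.3%) and in 7.51% of all 33469 promoters, and the AP-1 motif TGANTCA in 8 of 77 (10.4%) and in 7.33% of all, both strands being searched. Of the 14 matched promoters of members lower in EMPA + PFD than in HFpEF, 4 held AP-1 (Il11, Il16, Il18 and Tnfrsf1b) and 1 held NF-kB (Il1r1). The promoter of Il1a, the member that was higher there, held AP-1, and the 7 matched promoters of members that rose in HFpEF vs control 5w held neither motif. A match describes letters in this window and no more.

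The 4 promoters printed belong to members described above, each with its match in capitals: NF-kB in Il1r1 (chr9:50034133-50034432 on the plus strand) and Il4r (chr1:189545525-189545824 on the plus strand), whose disease effects differed between the weeks, and AP-1 in Il16 (chr1:147116693-147116992 on the minus strand) and Tnfrsf1b (chr5:162387362-162387661 on the minus strand), which were lower in EMPA + PFD than in HFpEF hearts. Each is given 5′ to 3′ on the strand of its gene in GRCr8.
Il1r1: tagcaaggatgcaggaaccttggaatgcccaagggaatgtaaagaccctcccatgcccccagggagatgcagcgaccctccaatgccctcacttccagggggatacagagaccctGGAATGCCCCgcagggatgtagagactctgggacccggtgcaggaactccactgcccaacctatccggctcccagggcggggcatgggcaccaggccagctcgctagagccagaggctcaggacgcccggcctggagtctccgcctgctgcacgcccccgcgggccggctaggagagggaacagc
Il4r: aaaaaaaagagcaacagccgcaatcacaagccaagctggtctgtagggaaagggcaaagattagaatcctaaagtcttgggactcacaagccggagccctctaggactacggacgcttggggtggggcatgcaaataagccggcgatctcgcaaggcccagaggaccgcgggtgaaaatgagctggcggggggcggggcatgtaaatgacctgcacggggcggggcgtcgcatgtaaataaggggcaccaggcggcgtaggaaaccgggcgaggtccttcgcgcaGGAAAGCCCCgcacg
Il16: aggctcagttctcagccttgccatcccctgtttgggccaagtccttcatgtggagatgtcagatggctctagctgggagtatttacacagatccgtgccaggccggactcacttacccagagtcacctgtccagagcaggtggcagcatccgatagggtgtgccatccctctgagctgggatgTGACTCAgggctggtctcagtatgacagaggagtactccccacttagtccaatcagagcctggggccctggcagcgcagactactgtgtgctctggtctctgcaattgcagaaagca
Tnfrsf1b: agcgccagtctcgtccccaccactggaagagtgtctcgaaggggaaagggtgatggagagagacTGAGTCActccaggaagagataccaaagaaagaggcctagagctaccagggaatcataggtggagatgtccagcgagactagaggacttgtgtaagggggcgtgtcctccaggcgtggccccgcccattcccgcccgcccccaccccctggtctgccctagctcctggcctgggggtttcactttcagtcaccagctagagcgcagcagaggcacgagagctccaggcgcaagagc

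By position, 33 of the 101 members overlap another gene in the GRCr8 gene table. Among the called members are several with such a neighbor: Il16 overlaps a pseudogene of Snrpc, Il18 overlaps Bco2 and Tex12, Tnfrsf10b overlaps Rhobtb2, Il1rn overlaps Il36b, Il17rd overlaps Arhgef3, Tnfsf13 overlaps Eif4a1l, and Il34 overlaps Rpl29l3. Il33, Il1a, Il2rb, Il7, Il22ra2 and Tnfrsf1b overlap genes that have only LOC numbers. The strand setting of the counting is not given in the sources used here, and the counts were made on the older build rn6, so the part of such neighbors in these counts was not tested.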

How the data were processed

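RNA of 19 rat hearts was sequenced, 1 library each, to 7430539 to 13017754 counts. The authors trimmed reads with Trim Galore, checked them with FastQC, aligned them to rn6 with HISAT2 and counted them with HTSeq, and deposited raw counts per gene symbol. Versions, overlap mode, strand setting and annotation are not given in the sources used here. A table of the whole series holds identical values and was not used.

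Groups came from the labels. Counts were scaled by TMM, filtered with filterByExpr and tested with the quasi-likelihood F test of edgeR 4.0.16 (limma 3.58.1, R 4.3.3), one model for all libraries, with Benjamini-Hochberg over all genes tested in each comparison. The p-values measure the spread between hearts. Each SE is the size of the log2 fold change divided by the square root of F. An exact permutation test of 3 against 3 hearts cannot go below p = 0.1. Replicate numbers did not pair the samples.

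Alternatives were DESeq2 1.42.0, its size factors, other filters, no fold threshold, only the groups compared, a replicate block, a term for Eif2s3y counts and leaving out each library. Leaving out HFpEF replicate 1 and untreated replicate 2 together was chosen after seeing the data.

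The members and lists were chosen with earlier results of these data known. Named were all members called in untreated vs control 9w, in the drug comparisons at week 9 or in the tests of differences, the 8 largest rises and 8 largest falls of the other comparisons, 25 members well known in the heart, and genes called in companion lists, up to 6 per list and comparison. Figures were drawn with matplotlib 3.10.9.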

Additional observations from a re-analysis of the deposited data

Results flagged for a closer look

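A difference between groups was found in 8 members, whose response to the disease at week 9 differed from that at week 5 by the test of the difference itself (edgeR's quasi-likelihood F test, Benjamini-Hochberg over all genes tested). Among the ligands, the log2 difference, week 9 minus week 5, was −1.30 for Il15 (adjusted p = 0.0254) and −1.73 for Il33 (adjusted p = 0.0491). Among the interleukin receptors it was −1.37 for Il1r1 (adjusted p = 0.00790), −1.42 for Il3ra (adjusted p = 0.00475), −1.22 for Il4r (adjusted p = 0.00638) and −4.28 for Il9r (adjusted p = 0.00196). Among the TNF receptors it was −1.58 for Tnfrsf10b (adjusted p = 0.0311) and −1.27 for Tnfrsf26 (adjusted p = 0.00761). A term for Eif2s3y, in which untreated and control 9w hearts differ wholly, ended the calls of Il15, Il33 and Tnfrsf26. That term rests on the HFpEF libraries alone and cannot separate Eif2s3y from the disease at week 9. No test for single outlying values was run in these groups of 2 or 3 libraries.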

How the results depend on the processing

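The numbers of called members in 11 comparisons and tests of differences were recomputed under each alternative. Of these values 267 lay within 1.5 times the count reported and 42 did not, and no called member changed sign under any alternative. With at least 10 counts in every library, 2 members were called in HFpEF vs control 5w, 1 in untreated vs control 9w and 9 in control 9w vs control 5w, where 39 members could be tested. With no filter beyond 1 count, untreated vs control 9w had 1. With no fold threshold, HFpEF vs control 5w had 14 and EMPA + PFD vs control 9w had 16. With only the groups compared in the model, HFpEF vs control 5w had 2, untreated vs control 9w had 1 and EMPA + PFD vs untreated had 0. DESeq2 called 2 in untreated vs HFpEF. Il17ra in EMPA + PFD vs untreated, Il34 in EMPA + PFD vs HFpEF and Tnfrsf9 in EMPA + PFD vs control 9w lost their calls in DESeq2.

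A term for Eif2s3y was estimated within HFpEF alone, so it cannot separate this gene from disease or drug where groups differ wholly in it. With the term, untreated vs control 9w had 0, untreated vs HFpEF 7 and EMPA + PFD vs HFpEF 12, of which 7 were among the 22 reported. EMPA + PFD vs untreated had 4 and the difference of the disease effects 8, of which Tnfrsf26 in the former and 5 members in the latter were among those reported. With HFpEF replicate 1 and untreated replicate 2 both left out, chosen after seeing the data, EMPA + PFD vs untreated had 1 and EMPA + PFD vs HFpEF 14. With the replicate number as a block, which the check of pairing did not call for (correlations of libraries with the same number from −0.532 to 0.351), untreated vs control 9w had 1. The cause was not tested for any of these.

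Leaving out each library in turn gave 4 to 9 members in HFpEF vs control 5w, 1 to 3 in untreated vs control 9w, 0 to 5 in EMPA + PFD vs untreated, 10 to 18 in control 9w vs control 5w, 0 to 7 in untreated vs HFpEF, 10 to 27 in EMPA + PFD vs HFpEF and 5 to 10 in the difference of the disease effects. Where this left an arm with 1 library, that library was assumed to vary like the other groups. EMPA vs untreated, PFD vs untreated and the interaction had 0 throughout. At these depths members with few counts, Il6, Tnf and Il10 among them, could not be compared.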
